A study of Mus musculus with 8 samples.

Results

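The EGR, NR4A and KLF early response factors described here are 10 genes: Egr1, Egr2 and Egr3, Nr4a1, Nr4a2 and Nr4a3, Klf2, Klf4 and Klf6, and Ier2. They were chosen by symbol, as the rows of the deposited isoform table whose gene name equals a member, which gave 14 of its 34535 isoforms and 10 of its 24358 genes. The cells were adipocyte precursors, skin cells of mesenchymal origin able to become fat cells, isolated by cell sorting from the dermis of male C57/Bl6 mice aged 7 weeks. The nonwounded group held 6 samples of dorsal skin and the wound bed group 2 samples taken at day 5, with no further treatment or allele named for either. For each isoform the table gives a single FPKM per group (fragments scaled to transcript length and library size, a level that can be compared between genes) and a Cuffdiff p-value. It holds no value per sample, so there is no SD and no depth per sample, and whether the 2 groups overlapped could not be seen. The labels do not name the sort markers, nor say whether samples came from separate animals. The p-values therefore refer only to these samples, and the spread between the samples may be technical.

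These genes are textbook early response genes: signals such as growth factors, cytokines, calcium, stretch or injury switch them on within minutes, from factors already present in the cell. EGR proteins are zinc finger activators, NR4A proteins are orphan nuclear receptors that act without a known hormone, and KLF proteins are zinc finger factors that bind GC-rich and CACCC letters. In skin, EGR1 is known from fibroblasts, where it takes part in the response to injury and to transforming growth factor beta. In mouse preadipocyte cell lines KLF4 and EGR2 promote the start of fat cell formation, KLF6 promotes it as well, and KLF2 holds it back. Tissue digestion and cell sorting are also known to induce early response genes.

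The upstream sequences of the NR4A genes and of Egr2 are shown first, because the NR4A genes were the family in which every member was called higher in the wound bed, and because known binding letters of signal-regulated factors occur in them. For Nr4a2, Nr4a3 and Egr2 the direction of the change was fixed by their being tested, as described below. Klf2 is shown beside them as a member without a call. The sequences are the 250 bases before the annotated start site, 5′ to 3′, from RefSeq on GRCm38.p6. Capitals mark the core of the cyclic AMP response element (CRE), TGACG or its reverse complement CGTCA, the CArG box bound by serum response factor, and the TATA box TATAAA on either strand.
Nr4a1, chr15:101266596-101266845, plus strand: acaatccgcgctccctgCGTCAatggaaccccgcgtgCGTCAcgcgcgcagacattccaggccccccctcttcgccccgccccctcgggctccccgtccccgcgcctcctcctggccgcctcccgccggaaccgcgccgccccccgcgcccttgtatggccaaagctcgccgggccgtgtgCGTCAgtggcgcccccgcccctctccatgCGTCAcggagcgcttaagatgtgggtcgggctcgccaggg
Nr4a2, chr2:57124004-57124253, minus strand: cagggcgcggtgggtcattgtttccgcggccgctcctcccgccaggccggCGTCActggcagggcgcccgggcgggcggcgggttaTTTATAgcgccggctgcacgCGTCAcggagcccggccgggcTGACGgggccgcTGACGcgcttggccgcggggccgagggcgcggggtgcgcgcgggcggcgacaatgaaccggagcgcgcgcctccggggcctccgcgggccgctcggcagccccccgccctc
Nr4a3, chr4:48045055-48045304, plus strand: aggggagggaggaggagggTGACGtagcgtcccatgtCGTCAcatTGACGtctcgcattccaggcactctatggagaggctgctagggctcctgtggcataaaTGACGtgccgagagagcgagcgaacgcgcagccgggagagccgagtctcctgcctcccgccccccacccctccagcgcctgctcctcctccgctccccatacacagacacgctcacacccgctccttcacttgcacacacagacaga
Egr2, chr10:67537619-67537868, plus strand: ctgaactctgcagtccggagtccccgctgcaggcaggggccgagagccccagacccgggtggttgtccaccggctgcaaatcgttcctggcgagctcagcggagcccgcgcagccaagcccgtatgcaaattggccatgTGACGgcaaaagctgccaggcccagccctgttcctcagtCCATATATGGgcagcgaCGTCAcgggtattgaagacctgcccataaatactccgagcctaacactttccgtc
Klf2, chr8:72318812-72319061, plus strand: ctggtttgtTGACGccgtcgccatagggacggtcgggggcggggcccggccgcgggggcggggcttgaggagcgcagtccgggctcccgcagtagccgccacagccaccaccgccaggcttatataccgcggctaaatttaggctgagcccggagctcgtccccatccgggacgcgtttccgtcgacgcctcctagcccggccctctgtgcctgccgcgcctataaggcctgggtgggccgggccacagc

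A promoter of the table, from 250 bases before to 50 after the start site, was matched to 7 of the 10 members, and in all 7 its start site equalled an end of the gene's locus in the deposited table. The loci printed below therefore match GRCm38.p6 start sites, although the submitters' processing notes name mm9. The CRE core occurred 4 times in each of the promoters of Nr4a1, Nr4a2 and Nr4a3, on either strand. Of all 32851 promoters of the same length, 20.8% held the core at least once and 0.231% at least 4 times. The core was added to the motifs with these promoters in view, and 4 is the count that the NR4A genes themselves held. The shares are therefore a description and not a test. Egr2 held the core 2 times, Klf2 and Klf4 once each, and Klf6 not at all. The promoters of the NR4A genes were GC-rich, with 72.3% G or C for Nr4a1, 81.7% for Nr4a2 and 64.7% for Nr4a3 against a median of 52.7% over all promoters, and the core itself contains the pair CG.

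The CArG box occurred in the Egr2 promoter, at positions -72 to -63 counted from the start site, between both CRE cores, and in 1.63% of all promoters. Of the 7, only Egr2 held this box in the window. Egr1, Egr3 and Ier2 had no promoter among the sequences used, so the box could not be looked for in them. Egr2 has 5 listed promoters, of which only that at the start of its locus was searched. The full CRE TGACGTCA (1.79% of all promoters), the EGR site GCGTGGGCG (0.612%) and the NR4A element NBRE, AAAGGTCA (1.51%), had no match in any of the 7. The TATA box TATAAA (13.6%) had a match in Nr4a2 alone, at positions -164 to -159 on the strand opposite to the printed sequence. The CRE core lies within the full CRE, and no other pair of these motifs shares letters in the 7 promoters. Each match is a run of letters, not a measured binding site.

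**Figure D1:**
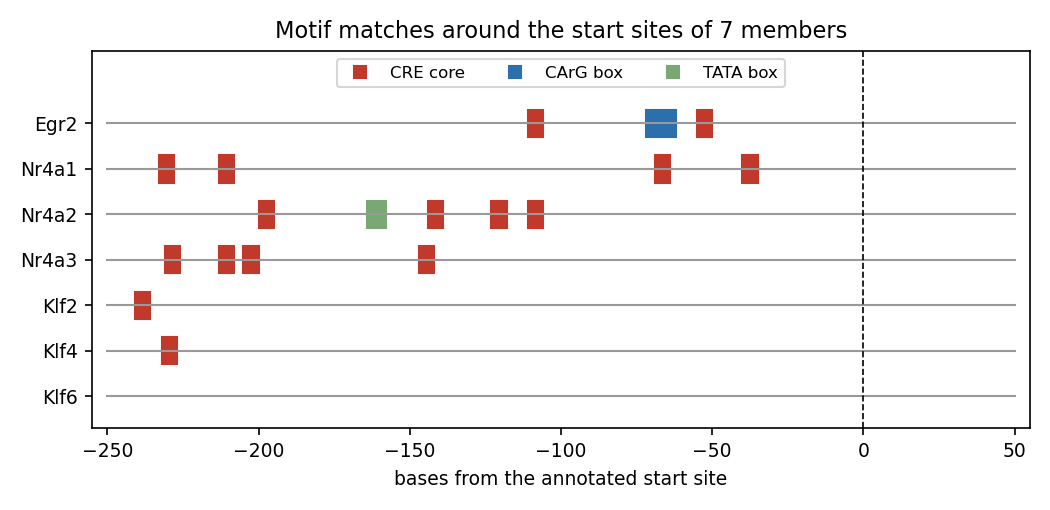
Matches to the CRE core (red), CArG box (blue) and TATA box (green) on either strand, by distance in bases from the annotated start site (dashed line), for the 7 members with a matched promoter, 1 row per gene. Nr4a1, Nr4a2 and Nr4a3 hold 4 cores each, Egr2 holds the CArG box between a pair of cores, and Klf6 holds none of the motifs drawn.

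The comparison asks how transcript levels in precursors of a day 5 wound bed differ from those in nonwounded skin. All 10 members stood higher in the wound bed, and 7 were called higher: Egr1, Egr2, Nr4a1, Nr4a2, Nr4a3, Klf4 and Klf6. For Egr2, Egr3, Nr4a2 and Nr4a3 this direction was fixed by their being tested, as described below. None was called lower, and Egr3, Klf2 and Ier2 had no call. A call means that the Cuffdiff p in the authors' deposited table, after Benjamini-Hochberg adjustment over the 17775 tested isoforms, was under 0.05. Over the isoforms of highest level of 13719 genes, 7.00% were called higher and 8.68% lower. The members had a median log2 fold change of 3.17, beside -0.14 for the 12961 genes whose higher group reached an FPKM of 1. The 6 members that reached an FPKM of 1 in each group had a median of 1.48, beside -0.11 for 10631 such genes, and the other 4 are described below. In sorted bulk RNA a larger share of responding cells and more RNA per cell cannot be told apart.

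The members fell into 2 kinds by their level in nonwounded skin. Egr1, Klf4, Klf2, Ier2 and Klf6 stood above an FPKM of 50 there, and 3 of these 5 were called higher, beside 6.92% of the 1287 genes at that level. Nr4a1 lay between, at 6.74. Egr2, Egr3, Nr4a2 and Nr4a3 stood under an FPKM of 1, where 7.66% of 1514 tested genes were called higher. Of these genes, 66.9% had the higher value in the wound bed. All 663 tested genes at or below a nonwounded FPKM of 0.621 had the higher value in the wound bed, so for these 4 members the direction was fixed by their being tested.

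**Figure D2:**
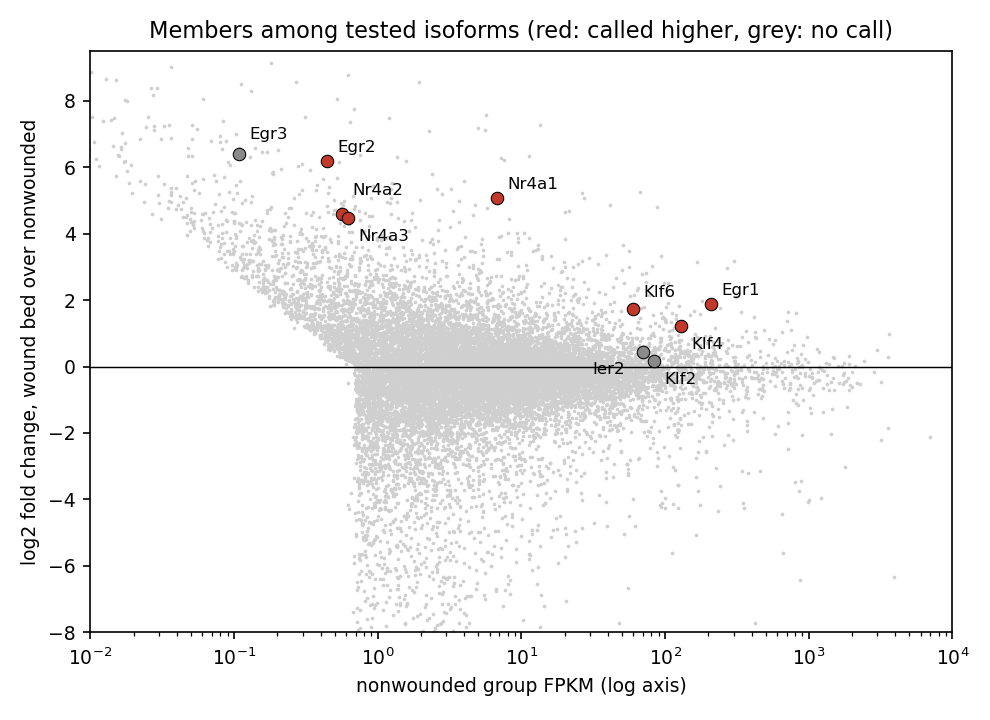
Log2 fold change of the wound bed over nonwounded skin (vertical axis) against the nonwounded group FPKM (horizontal log axis) for tested isoforms, 1 grey point each, with the 10 members as large points, red if called higher and grey if not. Egr1, Klf4 and Klf6 lie at a high nonwounded level with changes between 1.23 and 1.89, Egr2, Nr4a2 and Nr4a3 at a low level with changes above 4, and Klf2 close to 0.

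The EGR genes held the highest level of the set and one of its largest rises. Egr1, the best known member and a broad activator of growth factor and matrix genes, had an FPKM of 771 in the wound bed against 208 in nonwounded skin. This was a 3.71-fold rise (log2 fold change 1.89, adjusted Cuffdiff p of 0.000882) and the largest difference in FPKM among the members, 563. Egr1 was already high in nonwounded precursors, at percentile 98.0 of the tested isoforms, and reached percentile 99.4 in the wound bed.

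Egr2, also known as Krox20 and required for myelin formation, rose from 0.440 to 32.2, which is 73.1-fold (log2 fold change 6.19, adjusted Cuffdiff p of 0.00923). By fold change it ranked 135 of the 17022 tested isoforms with a value above 0 in both groups. Its locus in the table is chr10:67537869-67542188.

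Egr3, known from muscle spindles and lymphocytes, stood at 9.10 in the wound bed against 0.108 in nonwounded skin for its isoform of highest level (adjusted Cuffdiff p of 0.378) and at 2.49 and 0.122 for a further tested isoform (adjusted Cuffdiff p of 0.146). Another isoform was not tested, with both values under 0.001. Egr3 thus had a fold of 84.2 for its isoform of highest level, without a call. Its isoforms share a locus, so reads may be split between them, and their sum was 11.6 in the wound bed against 0.230 in nonwounded skin, which is 50.4-fold and under the 73.1-fold of Egr2. Egr4, the remaining gene of the family, was not tested, at 0.762 and 0.0126.

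Within the EGR family the order of levels was Egr1, Egr2 and Egr3 in both groups. Egr1 made up 99.7% of the summed EGR FPKM in nonwounded skin and 94.6% in the wound bed. Without values per sample, whether neighbours in such an order differ beyond their spread could not be tested, here or in the families below.

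All 3 NR4A genes were called higher. For Nr4a2 and Nr4a3, low in nonwounded skin, the direction was fixed by their being tested. Nr4a1, also known as Nur77, stood at 228 in the wound bed against 6.74 in nonwounded skin, a 33.8-fold rise (log2 fold change 5.08, adjusted Cuffdiff p of 0.000882). Nr4a2, also known as Nurr1 and required for dopamine neurons, stood at 13.5 and 0.561, a 24.0-fold rise (log2 fold change 4.59, adjusted Cuffdiff p of 0.00488). Nr4a3, also known as Nor1, stood at 13.6 and 0.621, a 22.0-fold rise (log2 fold change 4.46, adjusted Cuffdiff p of 0.00239). The 3 fold changes lay between 22.0 and 33.8, with no test of the differences between them.

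Nr4a1 was the main NR4A transcript in both groups, with 84.4% of the summed FPKM in nonwounded skin and 89.4% in the wound bed, and Nr4a2 and Nr4a3 were close to each other at both. The sum of the family was 7.99 in nonwounded skin and 255 in the wound bed. Nr4a2 and Nr4a3 each have a further isoform that was not tested. That of Nr4a2 stood at 0.0685 in nonwounded skin and 0.000285 in the wound bed, and that of Nr4a3 was listed at 0 in both. The table places Nr4a1 at chr15:101266846-101274794, Nr4a2 at chr2:57107226-57124003 and Nr4a3 at chr4:48045305-48086446.

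The KLF genes were high in both groups, and Klf4 and Klf6 rose. Klf4, a factor of skin barrier formation and pluripotency, stood at 303 in the wound bed against 129 in nonwounded skin, a 2.35-fold rise (log2 fold change 1.23, adjusted Cuffdiff p of 0.000882). Klf6, known from activated liver stellate cells, stood at 196 and 59.6, a 3.29-fold rise (log2 fold change 1.72, adjusted Cuffdiff p of 0.000882). Klf2, a factor of quiescent endothelium and T cells, stood at 93.4 and 83.3 (log2 fold change 0.17, adjusted Cuffdiff p of 0.667). Klf2 had no call, which does not show that its level was the same, and no interval can be given.

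The order of levels among these 3 genes changed, from Klf4, Klf2 and Klf6 in nonwounded skin to Klf4, Klf6 and Klf2 in the wound bed. The share of Klf2 in their summed FPKM was 30.7% in nonwounded skin and 15.8% in the wound bed, and that of Klf6 was 21.9% and 33.1%. The table places Klf4 at chr4:55527137-55532475, Klf6 at chr13:5861489-5870393 and Klf2 at chr8:72319062-72321654.

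Ier2, an early response gene of a nuclear protein, stood at 95.1 in the wound bed against 69.8 in nonwounded skin (log2 fold change 0.45, adjusted Cuffdiff p of 0.246), without a call. Ier5, a related gene, was called and rose from 7.22 to 110 (log2 fold change 3.93, adjusted Cuffdiff p of 0.000882). The difference between the changes of Ier2 and Ier5 was not tested.

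**Figure D3:**
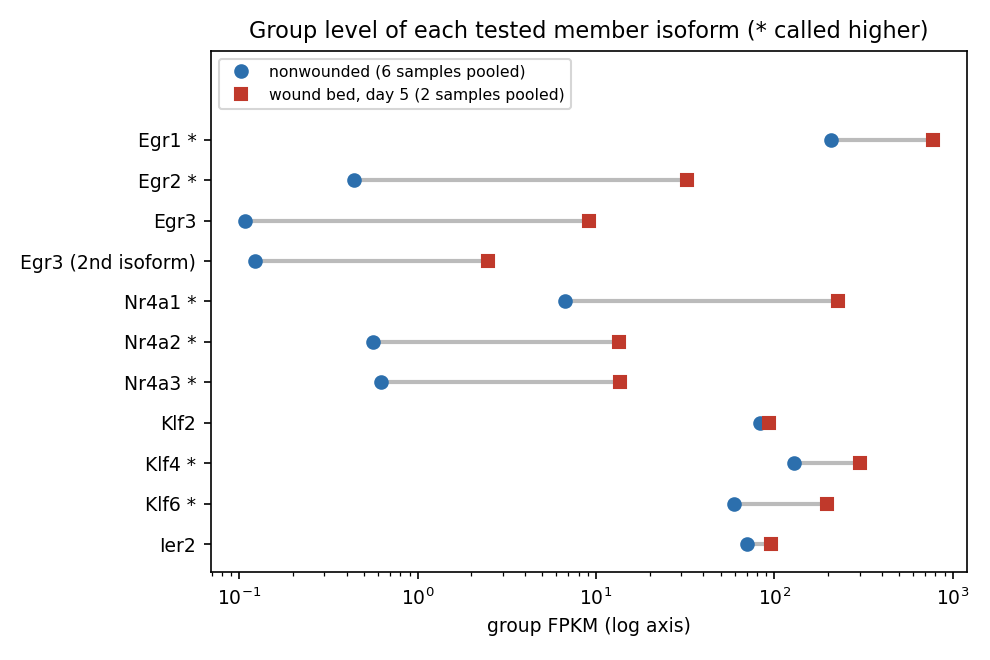
Group FPKM (horizontal log axis) of the 11 tested isoforms of the 10 members in nonwounded skin (blue circles) and in the wound bed at day 5 (red squares), joined by a grey line, with a star for those called higher. The lines of Egr2, Egr3 and the NR4A genes are long, those of Klf2 and Ier2 short.

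**Figure D4:**
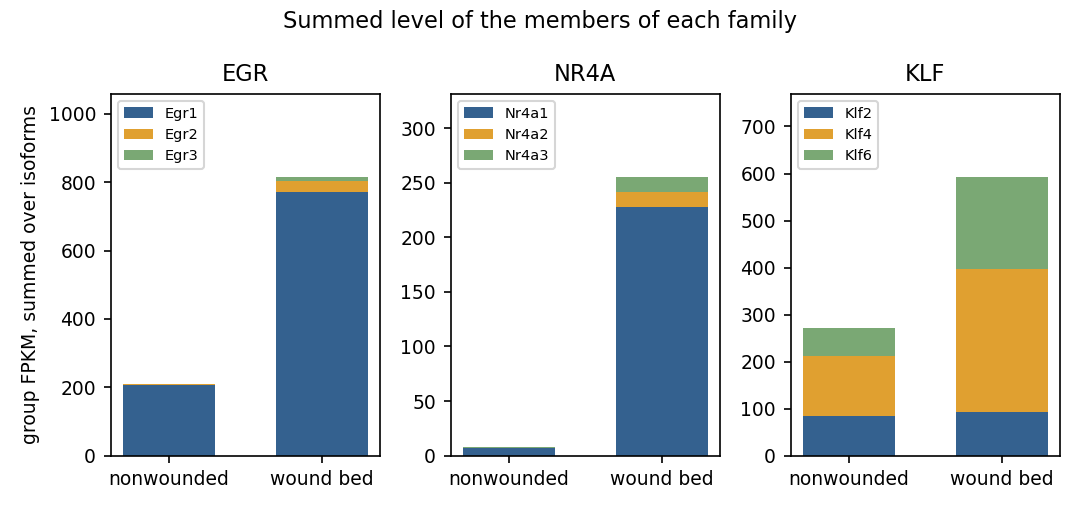
Group FPKM summed over isoforms (vertical axis, a scale of its own per panel) of the EGR, NR4A and KLF members in nonwounded skin and in the wound bed, stacked by gene. Egr1 and Nr4a1 make up most of their families in both groups, and the KLF stack grows through Klf4 and Klf6.

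Among 19 further relatives, 13 had a tested isoform whose higher group reached an FPKM of 1, and 4 of these were called higher and 0 lower, beside 7.39% higher and 8.70% lower over all such genes. Besides Ier5 they were Nab1, Klf5 and Klf16, with a median for the 13 of 0.64. Nab1, a co-repressor that binds EGR proteins, rose by 2.34 on the log2 scale from 1.90 to 9.61 (adjusted Cuffdiff p of 0.000882). Nab2, the other such co-repressor and itself an EGR target, stood at 16.4 and 10.6 without a call (adjusted Cuffdiff p of 0.241).

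Of the 17 KLF genes, 13 were tested, 4 were called higher and 0 lower, beside 7.00% higher and 8.68% lower over all tested genes. These calls were all counted above: Klf4 and Klf6 among the members, and Klf5 and Klf16 among the relatives. Klf5, which promotes fat cell formation in mouse cells, rose from 1.76 to 8.20 (log2 fold change 2.22, adjusted Cuffdiff p of 0.00971), and Klf16 from 5.05 to 12.6 (1.32, adjusted Cuffdiff p of 0.0106). Klf15, a factor of mature adipocytes and of the glucocorticoid response, stood at 0.376 in the wound bed against 2.27 in nonwounded skin (-2.59, adjusted Cuffdiff p of 0.157), and Klf3 and Klf9 stood at 25.4 and 24.8 against 25.9 and 21.7, all without a call. Klf2, Klf4 and Klf6 together made up 74.3% of the summed KLF FPKM in nonwounded skin and 83.5% in the wound bed.

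Factors that act upstream of these genes or pair with their products were called higher at a share near that of all such genes. Of 21 counted, 2 were higher and 0 lower, or 9.52% higher, beside 7.39% higher and 8.70% lower over all such genes. Their median was 0.10. The called genes were Elk3 and Elk4, ternary complex factors that bind beside serum response factor, which rose from 3.11 to 9.64 (log2 fold change 1.63, adjusted Cuffdiff p of 0.00239) and from 2.54 to 6.68 (1.40, adjusted Cuffdiff p of 0.0178). Srf, the gene of serum response factor itself, stood at 7.77 and 5.57 (adjusted Cuffdiff p of 0.306). Creb1, whose protein binds the CRE, stood at 2.39 and 3.64 for its isoform of highest level (adjusted Cuffdiff p of 0.334) and at 4.51 and 4.49 summed over isoforms, and Rxra, whose protein pairs with NR4A1 and NR4A2, at 11.0 and 10.2 (adjusted Cuffdiff p of 0.831).

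In a list of 20 other early response genes, 11 were called higher and 0 lower, beside 7.39% and 8.70% over all such genes, and the median was 3.26, or 2.93 for the 16 that reached an FPKM of 1 in each group. The largest called rises were those of Ier3 (6.27), a survival gene, Csrnp1 (5.33), a nuclear factor gene, and Gadd45b (5.20), a stress gene, each with an adjusted Cuffdiff p of 0.000882. Cyr61, a matricellular gene, stood at 254 in the wound bed against 302 in nonwounded skin, and Dusp1, a MAP kinase phosphatase gene, at 791 and 432 (adjusted Cuffdiff p of 0.542 and 0.0505). Of the Fos and Jun genes of AP-1, Fos rose from 413 to 1160, Fosb from 68.5 to 474, Junb from 16.0 to 162 and Jund from 36.3 to 67.3, each with a call. Jun stood at 274 and 175 and Fosl1 at 2.54 and 0.00514, both without a call (adjusted Cuffdiff p of 0.120 and 0.438).

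Of 9 counted genes described as EGR targets, 4 were called higher and 0 lower, beside 7.39% and 8.70% over all such genes, with a median of 1.57, or 1.13 for the 8 that reached an FPKM of 1 in each group. These were Cd44 (3.90), a hyaluronan receptor gene, Icam1 (3.87), an adhesion receptor gene, Tgfb1 (2.92), a growth factor gene known from scarring, and F3 (1.57), the tissue factor gene that starts coagulation. Pdgfa, Nab2, Fgf2 and Vegfa were among those counted without a call. Of 4 counted KLF targets, Cdkn1a, a cell cycle inhibitor gene, and S1pr1, a lipid receptor gene, rose by 1.80 and 2.11 (adjusted Cuffdiff p of 0.000882 and 0.0268), and Thbd, the thrombomodulin gene, fell from 67.3 to 40.0 (-0.75, adjusted Cuffdiff p of 0.0338). Eng was not called. All these genes have other regulators as well, and regulation by the members was not tested.

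**Figure D5:**
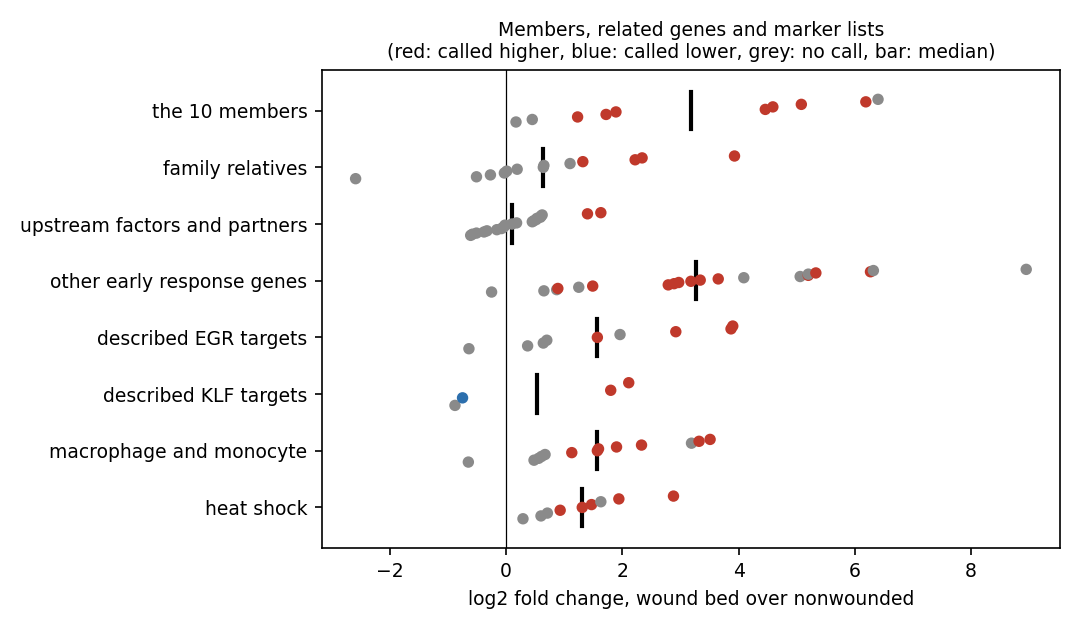
Log2 fold change of the wound bed over nonwounded skin (horizontal axis) of the 10 members, of 5 lists of related genes and of the macrophage and heat shock lists, 1 point per gene, in red for a call higher, blue for a call lower and grey for no call, with a bar at the median. Over genes that reached an FPKM of 1 in each group the medians are 1.48 for the members, 2.93 for other early response genes and 0.10 for upstream factors and partners, and the bars also include 4 members and 4 early response genes under 1 in nonwounded skin.

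Precursor and mesenchymal markers were present in both groups: Pdgfra stood at 81.2 in the wound bed against 78.8 in nonwounded skin, and Cd34 at 476 and 739. Of 11 such markers, 0 were called higher and 1 lower, beside 7.39% and 8.70% over all genes counted in the same way. The gene called lower was Cd24a, at 9.38 and 24.9. The summed FPKM of these markers was 6720 in the wound bed against 8600 in nonwounded skin. Macrophage and monocyte markers, from cells that also express EGR, NR4A and KLF genes, were called higher in 7 of 13 counted genes, beside 7.39% over all genes counted in the same way, and lower in 0. The summed FPKM of that list was 985 in the wound bed against 350 in nonwounded skin, with Lyz2 at 524 and 174, and no member of the list at 0. Genes of the list without a call included Ptprc at 4.13 and 0.453, Csf1r at 25.9 and 17.6, C1qa at 45.9 and 32.9, and Aif1, which stood lower in the wound bed at 7.80 and 12.2. Neutrophil markers summed to 100 and 2.01, with 0 of 3 counted genes called. Keratinocyte markers summed to 30.9 and 13.6, with 2 of 4 called higher. T cell markers summed to 1.10 and 0.462, with none counted, and endothelial markers to 27.2 and 90.9, with 0 of 5 called. Of the endothelial sums Tek alone gave 18.4 and 83.1, and the other 8 genes gave 8.83 and 7.82. No marker of these lists that the table holds stood at 0. The part of other cell types in the members' rises was not tested.

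Heat shock genes, which can mark stress during cell preparation, had 5 of 9 members called higher and 0 lower, beside 7.39% and 8.70% over all genes counted in the same way, with a median of 1.31 and summed FPKM of 2930 and 1040. Dnajb1, a co-chaperone gene, rose from 19.1 to 140 (log2 fold change 2.88, adjusted Cuffdiff p of 0.000882), whereas Hspa1a stood at 57.4 and 35.2 without a call (adjusted Cuffdiff p of 0.0566). How long each group was digested and sorted is not given in the sources used here, and the part of cell preparation in the members' rises was not tested.

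Most but not all of the members have short genes, and Nr4a2 and Nr4a3 span 17174 and 41293 bases. In the GENCODE M21 transcripts matched to their main isoforms, 8 of the 10 genes spanned under 10000 bases, beside 28.0% of 12202 genes, and the median span was 5280 bases against 21000. Exons numbered 4 or fewer in 6 of the 10 against 22.0%, with a single exon in Ier2 and 8 in Nr4a2 and Nr4a3. The letters ATTTA, the core of elements that hasten mRNA decay, occurred at least 2 times in the 3′ untranslated region of 7 of the 10, against 44.6% of all. Egr3 and Klf6 held 7 each and Ier2 none. Such counts also depend on the length of this region, with a median of 1190 bases in the members and 900 in all genes. The density per kilobase had a median of 1.96 in the members and 1.17 in all genes, where the upper quartile was 2.58. The members called and those not called both included short genes, such as Egr1 with a span of 3750 bases and Klf2 with 2624.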

How the data were processed

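Per the labels' protocols, sorted cells were lysed in Trizol, their RNA was purified on kit columns, and TruSeq mRNA libraries were prepared. Per the submitters' processing notes, TopHat2 2.0.2 and Cuffdiff 2.0.2 were used and the build is mm9. The authors deposited 1 table of 34535 isoforms with the FPKM of each group, pooled over its samples, and an unadjusted Cuffdiff p-value, also as deposited. There were 0 columns of single samples, so no count test, interval or test across samples could be made, and depth is unknown. Of the isoforms, 17775 were marked as tested, 16745 as not tested, 13 as too deep to process and 2 as failures. The values of the last 2 kinds were left out.

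The p-values were adjusted here over the tested isoforms by the Benjamini-Hochberg method. All 34535 isoforms had the same call here as in the deposited table. The smallest deposited p was 5e-05, shared by 1008 isoforms. Fold changes are the wound bed over the nonwounded FPKM with no pseudocount. Their median was -0.11 on the log2 scale over 12522 isoforms that reached an FPKM of 1 in each group, and this shift was not removed. A gene is represented by its tested isoform with the highest summed FPKM, and lists count genes whose higher group reached an FPKM of 1. The genes named were the 10 members and up to 3 called genes per list and direction with the largest changes that reached an FPKM of 1 in each group, with genes that explain a role. This rule covers the lists of related genes. Klf16, F3, Fos, Fosb, Junb, Jund, the marker and heat shock genes and the list genes named without a call fall outside it and were picked with their values known. The members and lists were chosen with earlier results of these data known. The CRE core was added to the motifs after the list of motifs had been written, with the promoters in view.

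Loci are those of the table, with starts counted from 1. The table's loci met the GRCm38.p6 start sites of 7 of 7 members although mm9 is named, so their build is uncertain. Isoforms of a gene share reads. The adjustment was tested on simulated data. Python 3.11.15, numpy 2.4.6, pandas 2.3.3 and matplotlib 3.10.9 were used.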

Additional observations from a re-analysis of the deposited data

How the results depend on the processing

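The 7 members called higher kept their call at an adjusted p under 0.01 or 0.1, when a log2 fold change of 1 was required, when only isoforms that reached an FPKM of 1 were adjusted over, and when an FPKM of 5 was required in the higher group. With Bonferroni adjustment 0 were called, since the smallest deposited p over 17775 tests gives 0.889. Egr3, Klf2 and Ier2 were not called under any of these. Only the threshold of 0.1 and the adjustment over fewer isoforms could have added a call. The threshold of 0.1 could not remove one. The sum over isoforms could move the fold change only of Egr3 and Nr4a2, and neither reversed. The other members have a single isoform or, for Nr4a3, a further one listed at 0. Under a pseudocount of 1 or 0.1, or centring on the median of -0.11, no member could reverse. A pseudocount keeps the direction of a ratio, and this centring only raises the changes. With a pseudocount of 1 the log2 fold changes of the members low in nonwounded skin were smaller: 4.53 for Egr2, 3.19 for Egr3, 3.21 for Nr4a2 and 3.18 for Nr4a3. Over genes that reached an FPKM of 1 in each group, a choice made after seeing the data, the median log2 fold change was 1.48 for the members and not 3.17, 2.93 for other early response genes and 1.13 for EGR targets. At an adjusted p under 0.01, counts became 1 higher for upstream factors and partners, 1 higher and 0 lower for KLF targets and 0 higher for keratinocyte markers. At 0.1, 1 precursor marker was higher and 1 endothelial marker lower. The other 66 of 72 list counts stayed within 1.5 times. No paired analysis was possible because the table holds no value per sample, and leaving out replicates was not run for the same reason.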
